A study of Mus musculus with 12 samples.

Results

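Neutrophil-attracting CXC chemokines and their receptors were examined as a set of 10 genes chosen by gene symbol out of 55414 genes in the expression table. The set holds the ligands Cxcl1, Cxcl2, Cxcl3, Cxcl5, Ppbp and Cxcl15, the receptors Cxcr2 and Cxcr1, and the pair Cxcl12 and Cxcr4. All 10 genes were measured, and all 10 passed the filter on low values. RNA-Seq was performed on whole lungs of 12 C57BL/6J mice, taken on day 4 after instillation of lipopolysaccharide (LPS), a component of the outer wall of Gram-negative bacteria that causes acute lung injury (ALI). The IL-10 B-KO group (n = 6) combines floxed Il10 alleles with mb1-Cre, and the IL-10 B-WT group (n = 6) keeps Il10 in B cells. Cre is driven by the promoter of Cd79a (mb1), a gene of the B cell receptor complex, so that the deletion is aimed at B cells and leaves Il10 intact in other cells. Both genotypes received LPS, so that no lung shows the level without LPS. The age of the mice, and whether the IL-10 B-WT mice carry the floxed alleles or Cre, are not given in the sources used here. The study's methods describe perfusion with PBS and lavage before the lungs were excised. The comparison asks whether the signals that bring neutrophils into the injured lung differ between these genotypes, which also differed in B cell RNA (below).

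Neutrophils leave the blood along gradients of CXC chemokines that carry a Glu-Leu-Arg motif before their first cysteines and signal through the G protein-coupled receptor CXCR2, and in part through CXCR1. CXCL1 (KC) and CXCL2 (MIP-2) are made by macrophages, epithelium and endothelium within hours of LPS sensing, largely through NF-kB. CXCL5 (LIX) is made chiefly by alveolar epithelium and platelets, CXCL15 (lungkine) by lung epithelium, and Ppbp encodes the platelet basic protein, which is stored in platelet granules and trimmed to an active CXCR2 ligand. CXCL12, made by stromal and endothelial cells, holds CXCR4-bearing neutrophils in the bone marrow and also attracts lymphocytes and other CXCR4+ leukocytes.

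The 6 ligands lie together on chromosome 5, within 146.6 kb of the plus strand (GRCm38, GENCODE M21). Their order is Cxcl5 (ENSMUSG00000029371, chr5:90759360-90761624), Ppbp (ENSMUSG00000029372, chr5:90768518-90770063), Cxcl3 (ENSMUSG00000029379, chr5:90786103-90789600), Cxcl15 (ENSMUSG00000029375, chr5:90794534-90803067), Cxcl1 (ENSMUSG00000029380, chr5:90891241-90893115) and Cxcl2 (ENSMUSG00000058427, chr5:90903871-90905938). The platelet gene Pf4 lies between Ppbp and Cxcl3, and 88.2 kb separate the end of Cxcl15 from the start of Cxcl1. Cxcr2 (ENSMUSG00000026180, chr1:74153989-74161246, plus strand) and Cxcr1 (ENSMUSG00000048480, chr1:74191785-74194631, minus strand) are neighbours, 30.5 kb apart. Cxcr4 (ENSMUSG00000045382, chr1:128588199-128592293, minus strand) lies elsewhere on that chromosome, and Cxcl12 (ENSMUSG00000061353, chr6:117168535-117181367, plus strand) lies outside the ligand cluster. The protein-coding transcripts of Cxcl2 and Cxcl3 share an exact run of 110 bases, against 23 bases for Cxcl1 with Cxcl2 and for Cxcl1 with Cxcl3. Reads within the shared run are divided between Cxcl2 and Cxcl3 by estimation, so that the split between these 2 genes is less certain than their common level.

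Cxcl1, Cxcl2 and Cxcl3 varied together across the lungs, as described below, and their promoters are shown beside those of 2 neighbours in the cluster, Ppbp and Cxcl15, whose deviations from the genotype means ran the other way or followed less closely (r = -0.84 and 0.77 with Cxcl2, against 0.98 for Cxcl3). Each stretch runs 5′ to 3′ from 150 to 31 bases before the RefSeq start (GRCm38.p6, plus strand), at chr5:90891095-90891214 for Cxcl1, chr5:90903749-90903868 for Cxcl2, chr5:90785951-90786070 for Cxcl3, chr5:90768368-90768487 for Ppbp and chr5:90794384-90794503 for Cxcl15. Capitals mark matches to the NF-kB consensus, the DNA motif of the transcription factor that LPS activates.
Cxcl1: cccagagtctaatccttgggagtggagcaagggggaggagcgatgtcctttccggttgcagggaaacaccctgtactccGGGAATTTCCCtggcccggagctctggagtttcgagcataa
Cxcl2: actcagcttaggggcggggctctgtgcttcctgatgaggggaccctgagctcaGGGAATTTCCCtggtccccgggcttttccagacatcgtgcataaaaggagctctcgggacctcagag
Cxcl3: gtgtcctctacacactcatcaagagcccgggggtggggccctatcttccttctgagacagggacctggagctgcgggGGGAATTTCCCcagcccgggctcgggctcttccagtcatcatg
Ppbp: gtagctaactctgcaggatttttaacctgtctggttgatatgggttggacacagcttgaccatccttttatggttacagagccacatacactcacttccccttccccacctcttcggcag
Cxcl15: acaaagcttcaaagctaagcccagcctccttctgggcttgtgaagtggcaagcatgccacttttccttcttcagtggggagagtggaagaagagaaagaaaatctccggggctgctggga
The letters GGGAATTTCC, those of the first match in Cxcl1, were found in that gene at bases 71 to 62 before the start, in Cxcl2 at bases 97 to 88 and in Cxcl3 at bases 73 to 64. In each of them the NF-kB consensus, searched on both strands, matched there and again on the other strand, shifted by 1 base, so that both matches overlap. Over the 250 bases before the start, GGGAATTTCC on either strand occurred in 3 of the 9 genes of the set that have a RefSeq promoter and in 28 of 32851 promoters in all (0.0852%). The NF-kB consensus occurred in the same 3 genes and in 7.25% of all promoters. Cxcl12 and Cxcr2 had no match, although their deviations followed those of Cxcl2 at r = 0.90 and 0.89, against 0.91 for Cxcl1. A close course with Cxcl2 thus did not go with a match in every gene of the set. The motifs were chosen with these sequences in view, a match is a description and not a bound site, and the lack of a match says only that these letters are not in this window.

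The deposited values are TPM, an expression unit that divides reads by gene length and scales each library to 1 total, so that levels can be compared between genes but sequencing depth is unknown. Differences were tested with limma on log2(TPM + 1) over 15148 genes. Differentially expressed genes (DEGs) are those with a log2 fold change of 1 or more in either direction and a Benjamini-Hochberg adjusted p no greater than 0.05, and genes with an unadjusted limma p no greater than 0.05 are called nominally higher or lower. A log2 fold change on this scale, given as IL-10 B-KO over IL-10 B-WT throughout, understates the change of genes at low TPM. Cd79a ranged from 15.3 to 258.64 TPM in the IL-10 B-WT group and from 0 to 5.73 TPM in the IL-10 B-KO group and was a DEG (log2 fold change -4.16, adjusted p = 0.0222, and adjusted p from 0.0101 to 0.067 with each lung left out), while Il10 lay between 0 and 0.88 TPM in the former and between 0 and 0.58 TPM in the latter, so that the targeted transcript did not separate the genotypes. Lung epithelium was present in every library, with Sftpc, the surfactant gene of alveolar type 2 cells, between 2548.35 and 16423.75 TPM. Of the B cell markers, 9 of 10 were nominally lower in the IL-10 B-KO group, against 5.71% of all genes, and Cd79a was the 1 DEG. The median log2 fold change of these markers was -1.80. Their summed level was 78.66 to 1040.98 TPM in the IL-10 B-WT group and 9.8 to 94.12 TPM in the IL-10 B-KO group. Pax5 was a further DEG of these markers on leaving out IL-10 B-WT replicate 1 or, in a separate fit, IL-10 B-KO replicate 2. Immunoglobulin genes held 0.248% to 15.4% of the TPM in the IL-10 B-WT group and 0.00199% to 0.0647% in the IL-10 B-KO group. Loss of IL-10 from B cells and lower B cell RNA thus go together here and cannot be told apart. In whole-lung RNA, fewer cells of a type and less RNA per cell cannot be told apart either.

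In 3 libraries the profile was closer to the other genotype than to its own. IL-10 B-WT replicate 1 had a median Spearman's rho of 0.876 across genes to its own genotype but 0.956 to the other, and IL-10 B-KO replicate 2 had 0.912 and 0.927, in the same order (genes are not independent replicates). IL-10 B-WT replicate 3 lay almost level between them, at 0.932 and 0.933. Cd79a did not go against the labels of the first 2, at 15.3 TPM (the lowest of its group) and 4.35 TPM. Other B cell values told these 2 lungs apart less well. The B cell marker sum was 95.08 TPM in IL-10 B-WT replicate 1 and 94.12 TPM in IL-10 B-KO replicate 2. The latter lay within the IL-10 B-WT range, which began at 78.66 TPM. Immunoglobulin genes held 0.248% of TPM in the former, the lowest of its group, and 0.0647% in the latter, the highest of its group. IL-10 B-WT replicate 1 was the top IL-10 B-WT lung for 8 of the 10 genes, against 44.9% of all genes tested, and IL-10 B-KO replicate 2 was the bottom IL-10 B-KO lung for 8 of the 10, against 32.3% of all genes. IL-10 B-WT replicate 5 was the bottom IL-10 B-WT lung for 6 of the 10, against 75.7% of all genes, and on leaving it out the median log2 fold change of all genes was -0.02 in place of 0.10. Values without these lungs are given where leaving 1 of them out changed a call or moved a called value by over 1.5 times.

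**Figure D1:**
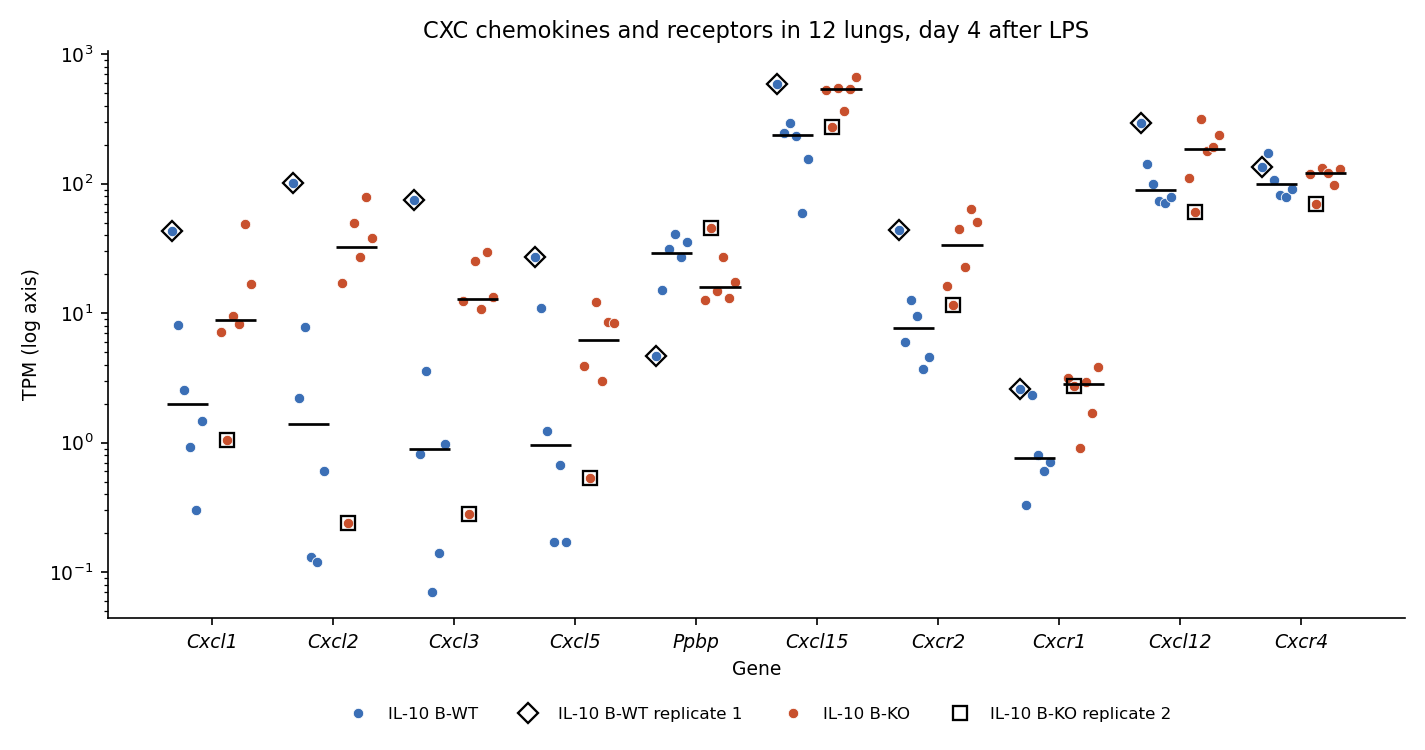
TPM of the 10 genes in each lung (log axis), with IL-10 B-WT lungs in blue, IL-10 B-KO lungs in red and a bar at the median of each genotype's 6 lungs. IL-10 B-WT replicate 1 (diamonds) sat at 101.27 TPM for Cxcl2, above every IL-10 B-KO lung, and IL-10 B-KO replicate 2 (squares) sat at 0.24 TPM.

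None of the 10 genes was a DEG between the genotypes over all 12 lungs in limma, against 75 DEGs (0.495%) among the 15148 genes tested, of which 4 (0.0264%) were higher in the IL-10 B-KO group. Nominally, 3 of the 10 were higher in the IL-10 B-KO group, namely Cxcr2, Cxcl15 and Cxcr1, against 6.83% of all genes, and 0 were lower, against 5.71%. The log2 fold change was above 0 for 9 of the 10 genes, against 63.2% of all genes, and at least 1 for 5 of them (Cxcl1, Cxcl2, Cxcl3, Cxcl15 and Cxcr2), against 3.52%. The median log2 fold change of the 10 genes was 0.93 and that of all genes 0.10. In none of the 10 did the genotypes separate without overlap, against 1.02% of all genes.

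Without IL-10 B-WT replicate 1, 3 of the 10 genes were DEGs higher in the IL-10 B-KO group, against 2.30% of the genes then tested (3.85% in either direction). These were Cxcr2, with a log2 fold change of 1.99 (adjusted p = 0.0342), Cxcl15, with 1.43 (adjusted p = 0.0483), and Cxcl3, with 2.66 (adjusted p = 0.0479). In the same fit 7 of the 10 were nominally higher, against 17.9% of all genes. Without IL-10 B-KO replicate 2, 0 of the 10 were DEGs in limma, against 0.727% of all genes (0.0733% higher in the IL-10 B-KO group), and 5 were nominally higher, against 11.2%. With IL-10 B-WT replicate 5 left out, 0 were DEGs in limma, against 0.153% of all genes (0.00664% higher in the IL-10 B-KO group), and 2 were nominally higher, against 3.19%. The calls for Cxcr2, Cxcl15 and Cxcl3 thus depended on 1 lung of the IL-10 B-WT group.

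**Figure D2:**
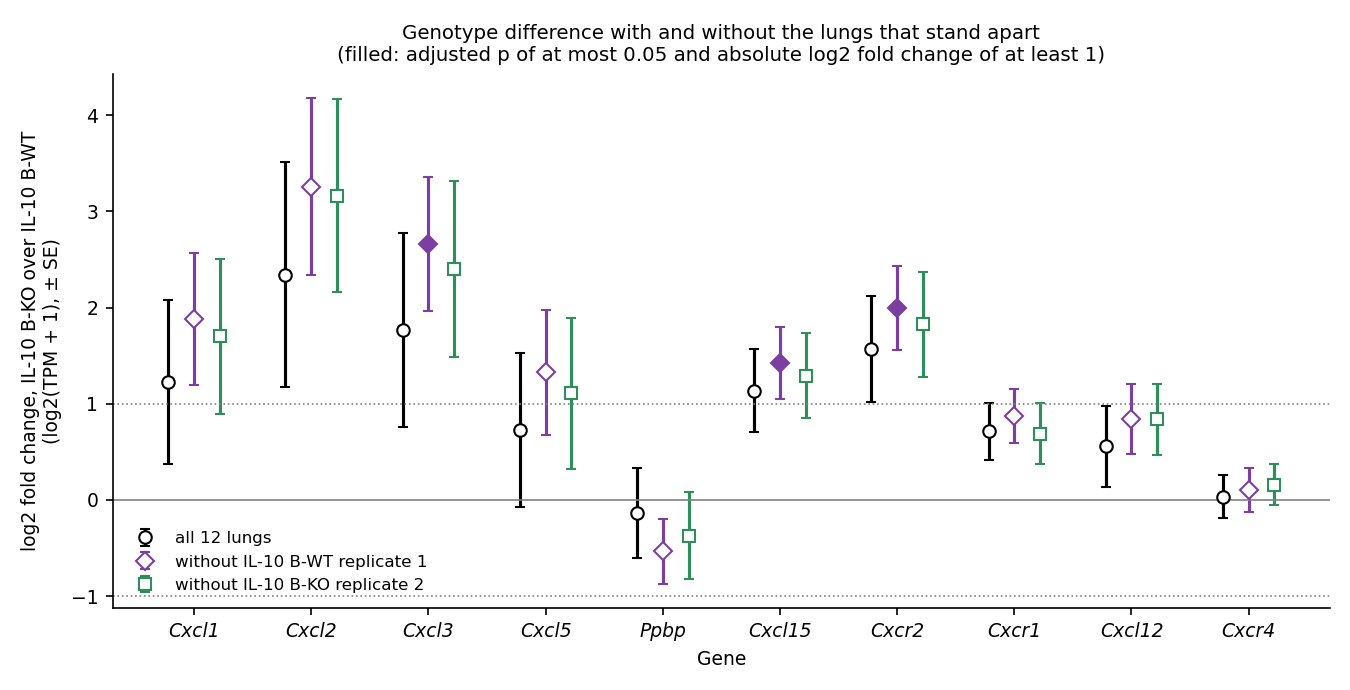
Log2 fold change (IL-10 B-KO over IL-10 B-WT, on log2(TPM + 1), with SE bars) for the 10 genes over all 12 lungs and in 2 fits that leave out replicate 1 of the IL-10 B-WT group or replicate 2 of the IL-10 B-KO group, with DEGs filled and dotted lines at a log2 fold change of 1 in either direction. Cxcl3, Cxcl15 and Cxcr2 are filled only in the fit without IL-10 B-WT replicate 1, and Ppbp lies below 0 in each of the 3 fits.

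Cxcl1, Cxcl2, Cxcl3 and Cxcl5, the inducible CXCR2 ligands, had medians between 4.41 and 23.2 times higher in the IL-10 B-KO group, with lungs of each genotype spread so widely that none of these differences passed the test over all 12 lungs. Cxcl2, the ligand known as MIP-2, had a lowest, median and highest value of 0.12, 1.4 and 101.27 TPM in the IL-10 B-WT group and of 0.24, 32.46 and 78.83 TPM in the IL-10 B-KO group. Apart from replicate 1, the IL-10 B-WT lungs lay at or below 7.82 TPM, 5 lungs of the IL-10 B-KO group lay above that, and its replicate 2 was among the lowest of all. Its log2 fold change was 2.34 (SE 1.17, adjusted p = 0.432; exact permutation test, p = 0.117, n = 6), with a 95% interval from -0.18 to 4.86. It was 3.26 on leaving out IL-10 B-WT replicate 1 (adjusted p = 0.0584; exact permutation test, p = 0.0238, n = 5 and 6) and 3.16 on leaving out IL-10 B-KO replicate 2 (adjusted p = 0.131; exact permutation test, p = 0.0325, n = 6 and 5). These were the only 2 of 12 analyses with 1 lung left out where the exact p was at most 0.05, and it ran up to 0.201.

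Cxcl3, a close relative of Cxcl2, ranged from 0.07 to 74.72 TPM with a median of 0.9 TPM in the IL-10 B-WT group and from 0.28 to 29.72 TPM with a median of 12.82 TPM in the IL-10 B-KO group. The same lungs were at the extremes, and 5 IL-10 B-KO lungs exceeded every IL-10 B-WT lung but replicate 1. The log2 fold change of Cxcl3 was 1.76 (SE 1.01, adjusted p = 0.473; exact permutation test, p = 0.143, n = 6), and the exact p was 0.0173 with IL-10 B-WT replicate 1 left out and 0.0498 with IL-10 B-KO replicate 2 left out, where the log2 fold change was 2.40. The exact p of Cxcl3 was at most 0.05 in only these 2 of 12 analyses with 1 lung left out and ran up to 0.255. Cxcl1, the ligand known as KC, ranged from 0.3 to 43.47 TPM with a median of 2.005 TPM in the IL-10 B-WT group and from 1.04 to 48.98 TPM with a median of 8.85 TPM in the IL-10 B-KO group, and its groups overlapped over most of that range. Its log2 fold change was 1.22 (SE 0.86, adjusted p = 0.537; exact permutation test, p = 0.240, n = 6), and 1.88 without IL-10 B-WT replicate 1 (adjusted p = 0.117; exact permutation test, p = 0.0455, n = 5 and 6). That was the only 1 of 12 analyses with 1 lung left out where the exact p of Cxcl1 was at most 0.05, and it ran up to 0.444. Cxcl5, the epithelial and platelet ligand, ranged from 0.17 to 26.93 TPM with a median of 0.955 TPM in the IL-10 B-WT group and from 0.53 to 12.14 TPM with a median of 6.175 TPM in the IL-10 B-KO group. Its mean was lower in the IL-10 B-KO group, at 6.09 ± 4.32 TPM against 6.71 ± 10.8 TPM (SD, n = 6), and its median higher, since replicates 1 and 2 of the IL-10 B-WT group held most of that group's Cxcl5. The log2 fold change of Cxcl5 was 0.73 (SE 0.80, adjusted p = 0.695; exact permutation test, p = 0.429, n = 6).

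The spread between lungs was itself large for these ligands. In IL-10 B-WT lungs the top lung held 844 times the Cxcl2 and 1067 times the Cxcl3 of the bottom lung, against 2.2 times for Cxcr4. Without replicate 1, the top lung in each case, these spreads were 65.2 times and 51.0 times. The SD of log2(TPM + 1) over the lungs of a genotype was 2.52 for Cxcl2 in the IL-10 B-WT group and 2.14 in the IL-10 B-KO group, where the medians over all genes tested were 0.44 and 0.31. The former fell to 1.26 on leaving out IL-10 B-WT replicate 1, and the latter to 0.81 on leaving out IL-10 B-KO replicate 2. Over all 12 lungs Cxcl1, Cxcl2, Cxcl3 and Cxcl5 each lay above the 97th percentile of this SD among all genes tested, in both genotypes. For the 10 genes together, 7 lay above the 90th percentile in IL-10 B-WT lungs and 6 in the IL-10 B-KO group.

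Summed over Cxcl1, Cxcl2, Cxcl3 and Cxcl5, the IL-10 B-WT lungs held 246.39, 22.15, 15.18, 1.29, 1.23 and 3.21 TPM in replicates 1 to 6 and the IL-10 B-KO lungs 40.65, 2.09, 96.36, 49.1, 166.07 and 76.21 TPM. Thus 5 IL-10 B-KO lungs lay above every IL-10 B-WT lung but replicate 1, and IL-10 B-KO replicate 2 lay among the lungs with little of any of the 4. Cxcl2 exceeded Cxcl1 in 7 lungs, whose sums ran from 15.18 to 246.39 TPM, and was below Cxcl1 in 5 lungs, whose sums ran from 1.23 to 22.15 TPM. Cxcl2 is itself part of these sums, so that the split and the level are not independent. Deviations from the genotype means in log2(TPM + 1) correlated at r = 0.98 between Cxcl2 and Cxcl3, 0.91 between Cxcl1 and Cxcl2 and 0.89 between Cxcl1 and Cxcl5 over the 12 lungs. These correlations are a description, as the values share a library and its total, and Cxcl2 and Cxcl3 also share reads.

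Ppbp, the platelet basic protein gene, ran against the other ligands of its cluster. It ranged from 4.67 to 40.86 TPM with a median of 29.19 TPM in the IL-10 B-WT group and from 12.74 to 45.08 TPM with a median of 16.0 TPM in the IL-10 B-KO group. The lung with the least Ppbp was IL-10 B-WT replicate 1 and the lung with the most was IL-10 B-KO replicate 2. For Cxcl2 the former had the most of all lungs and the latter the least of the IL-10 B-KO group. The log2 fold change of Ppbp was -0.14 (SE 0.46, adjusted p = 0.911; exact permutation test, p = 0.831, n = 6), and the interval of the difference, from -1.14 to 0.86, leaves room for changes of either sign. Its deviations from the genotype means correlated at r between -0.84 and -0.93 with those of Cxcl1, Cxcl2, Cxcl3 and Cxcl5, as a description over 12 lungs. Its neighbour Pf4, the other platelet chemokine of the cluster, had 60.0 ± 25.6 TPM in the IL-10 B-WT group and 82.9 ± 60.4 TPM in the IL-10 B-KO group (SD, n = 6), with a log2 fold change of 0.37 (adjusted p = 0.658).

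**Figure D3:**
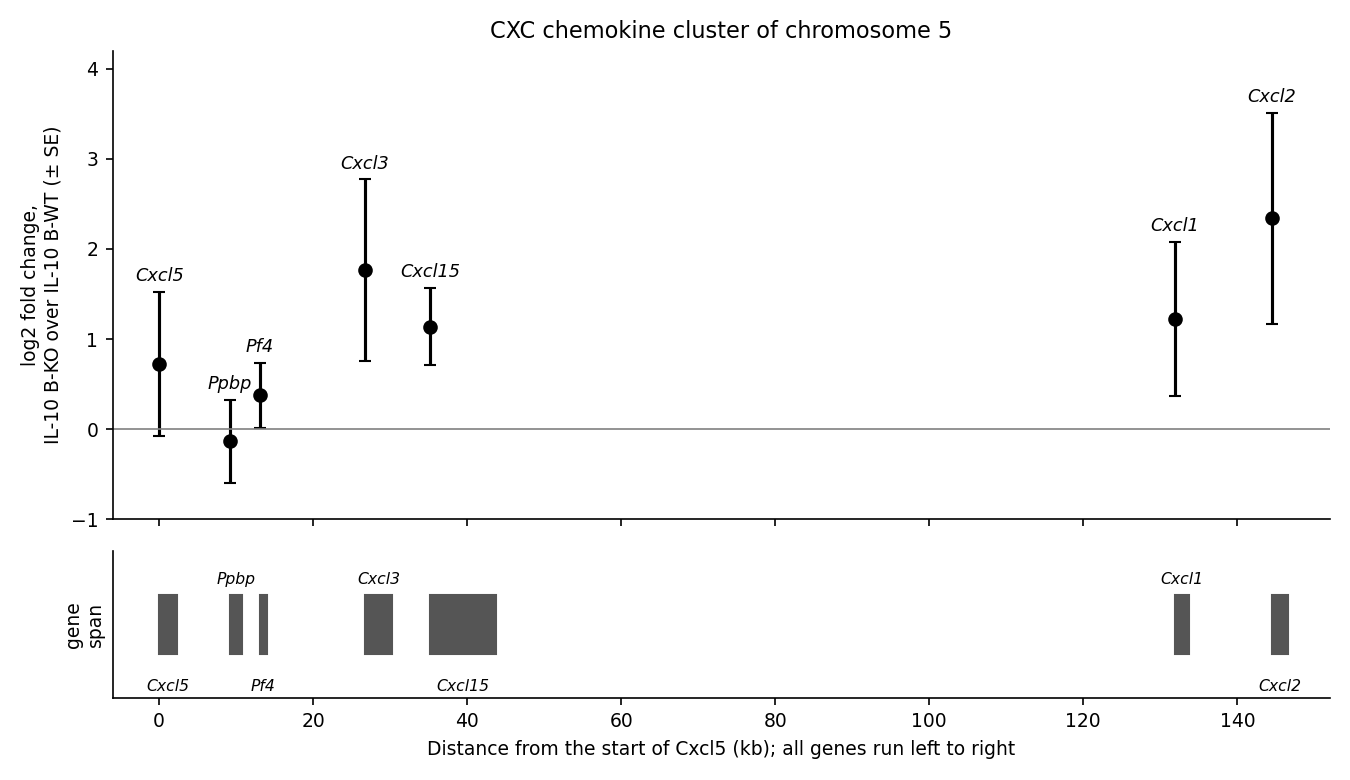
Log2 fold change (IL-10 B-KO over IL-10 B-WT, with SE bars) of the 6 ligands and Pf4 by the distance of their starts from that of Cxcl5 in kb (top), with the span of each gene to scale (bottom). Ppbp, at -0.14, and Pf4, at 0.37, lie between Cxcl5, at 0.73, and Cxcl3, at 1.76, and none of these differences passed the test.

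Cxcl15, the lung epithelial chemokine, was the most abundant of the 10 genes in both genotypes, at 262 ± 178 TPM in the IL-10 B-WT group and 489 ± 143 TPM in the IL-10 B-KO group (SD, n = 6). It ranged from 59.64 to 584.38 TPM with a median of 238.93 TPM in the former and from 274.79 to 671.98 TPM with a median of 534.1 TPM in the latter. Every IL-10 B-KO lung lay above the IL-10 B-WT median, and 5 of them lay above every IL-10 B-WT lung but replicate 1. On the log2 scale the fold change was 1.14 (SE 0.43, adjusted p = 0.330; exact permutation test, p = 0.0281, n = 6), which missed the adjusted threshold and passed the exact test on this gene alone. The exact p ran from 0.00649 to 0.0606 when each lung was left out in turn and was at most 0.05 in 7 of those 12 analyses. Leaving out IL-10 B-WT replicate 5 gave a log2 fold change of 0.77 (exact permutation test, p = 0.0584, n = 5 and 6), and the exact p also exceeded 0.05 on leaving out any of IL-10 B-KO replicates 1, 3, 5 and 6. The study singled out Cxcl15 on these lungs, so that its difference here is not independent evidence. Cxcl15 made up 67.7% to 86.8% of the summed TPM of the 6 ligands in IL-10 B-WT mice and 75.2% to 90.8% in IL-10 B-KO mice, while Cxcl1, Cxcl2, Cxcl3 and Cxcl5 together made up 0.469% to 29.5% and 0.649% to 23.0%.

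Alveolar type 2 markers shared the direction of Cxcl15 between the genotypes. All 10 markers of the list were tested, and 10 had a log2 fold change above 0 (median 0.85), against 63.2% of all genes. Of them 6 were nominally higher, against 6.83% of all genes, and 0 were DEGs. The surfactant protein gene Sftpd was a DEG on leaving out IL-10 B-WT replicate 1. Their sum ranged from 3416.52 to 17946.9 TPM in the IL-10 B-WT group and from 12513.5 to 22420.7 TPM in the IL-10 B-KO group, and none of the markers was at 0 in all IL-10 B-KO lungs. Among the abundant markers, Sftpa1, a surfactant protein gene, had a log2 fold change of 1.09 (adjusted p = 0.342), Sftpb had 0.74 (adjusted p = 0.378) and Sftpc had 0.45 (adjusted p = 0.616). Over the 12 lungs, log2(TPM + 1) of Cxcl15 correlated with the log2 marker sum at Pearson's r = 0.87 (permutation test, p = 0.00151, adjusted p = 0.00302 over the 4 such relations computed) and Spearman's rho = 0.55 (permutation test, p = 0.0716). Without the lungs farthest from the median sum, IL-10 B-WT replicates 5 and 6, r was 0.39 (permutation test, p = 0.266), so that the relation rested on those 2 lungs. Within the IL-10 B-WT lungs r was 0.94 (exact permutation test, p = 0.00417, n = 6) and within the IL-10 B-KO lungs 0.12 (exact permutation test, p = 0.833, n = 6). The part of the epithelial markers in the Cxcl15 difference was not tested.

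Cxcr2, the main receptor of these ligands on neutrophils, was nominally higher in the IL-10 B-KO group and was no DEG. It ranged from 3.68 to 43.73 TPM with a median of 7.73 TPM in the IL-10 B-WT group and from 11.55 to 64.1 TPM with a median of 33.8 TPM in the IL-10 B-KO group. The groups overlapped through IL-10 B-WT replicates 1 and 3, while 4 IL-10 B-WT lungs lay below every IL-10 B-KO lung and 3 IL-10 B-KO lungs lay above every IL-10 B-WT lung. For Cxcr2 the log2 fold change was 1.57 (SE 0.55, adjusted p = 0.304; exact permutation test, p = 0.0346, n = 6), and the exact p ran from 0.00866, with IL-10 B-WT replicate 1 left out, to 0.0693, with IL-10 B-WT replicate 5 left out. It also exceeded 0.05 on leaving out any of IL-10 B-WT replicates 2, 4 and 6 and any of IL-10 B-KO replicates 3, 5 and 6. Cxcr1, the second receptor, was the least abundant of the 10 genes, at 1.23 ± 0.974 TPM in the IL-10 B-WT group and 2.56 ± 1.07 TPM in the IL-10 B-KO group (SD, n = 6). It ranged from 0.33 to 2.61 TPM in the IL-10 B-WT group, with a median of 0.76 TPM, and from 0.91 to 3.87 TPM in the IL-10 B-KO group, with a median of 2.85 TPM, and 4 IL-10 B-KO lungs lay above every IL-10 B-WT lung. Its log2 fold change was 0.72 (SE 0.30, adjusted p = 0.357; exact permutation test, p = 0.0519, n = 6), on values near the pseudocount of 1, and the exact p was 0.0238 without IL-10 B-WT replicate 1. Leaving out replicate 3 of either genotype gave an exact p of 0.0260. The exact p of Cxcr1 was at most 0.05 in 3 of 12 analyses with 1 lung left out and ran up to 0.106. Cxcr2 was between 4.23 and 49.5 times as abundant as Cxcr1 in single lungs, and the deviations of both receptors correlated at only r = 0.34, against 0.89 for Cxcr2 with Cxcl2.

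Neutrophil markers moved with Cxcr2. Of 14 markers, 14 were tested and had a log2 fold change above 0 (median 1.43), against 63.2% of all genes. In the IL-10 B-KO group 10 were nominally higher, against 6.83% of all genes, and 0 were DEGs. On leaving out IL-10 B-WT replicate 1, 7 of the 14 were DEGs, all higher, against 2.30% of the genes then tested. The abundant markers were S100a9 and S100a8, the subunits of calprotectin, with log2 fold changes of 1.87 (adjusted p = 0.214) and 1.94 (adjusted p = 0.266), and Retnlg, a resistin-like gene of neutrophils, with 2.09 (adjusted p = 0.187). Summed over the list, IL-10 B-WT lungs held 401.4 to 2673.11 TPM and IL-10 B-KO lungs 1195.54 to 8258.17 TPM, and none of the markers was at 0 in all IL-10 B-KO lungs. Cxcr2 correlated with this sum at r = 0.98 over the 12 lungs (permutation test, p = 1e-05, the smallest that 100000 resamples can give, adjusted p = 4e-05), and the rank order of the lungs was the same (rho = 1.0). Within IL-10 B-WT lungs r was 0.97 and within the IL-10 B-KO group 0.996 (exact permutation tests, p = 0.00139 each, n = 6), and r was 0.97 without IL-10 B-KO replicates 5 and 6 (permutation test, p = 2e-05). The part of the neutrophil markers in the Cxcr2 difference was not tested. The 3 genes whose pattern was most like that of Cxcr2 over the 12 lungs, by Pearson's r of deviations from the genotype means among all genes tested, were Fpr1, a formyl peptide receptor (r = 0.98), S100a8 (r = 0.98) and A530064D06Rik (r = 0.97).

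**Figure D4:**
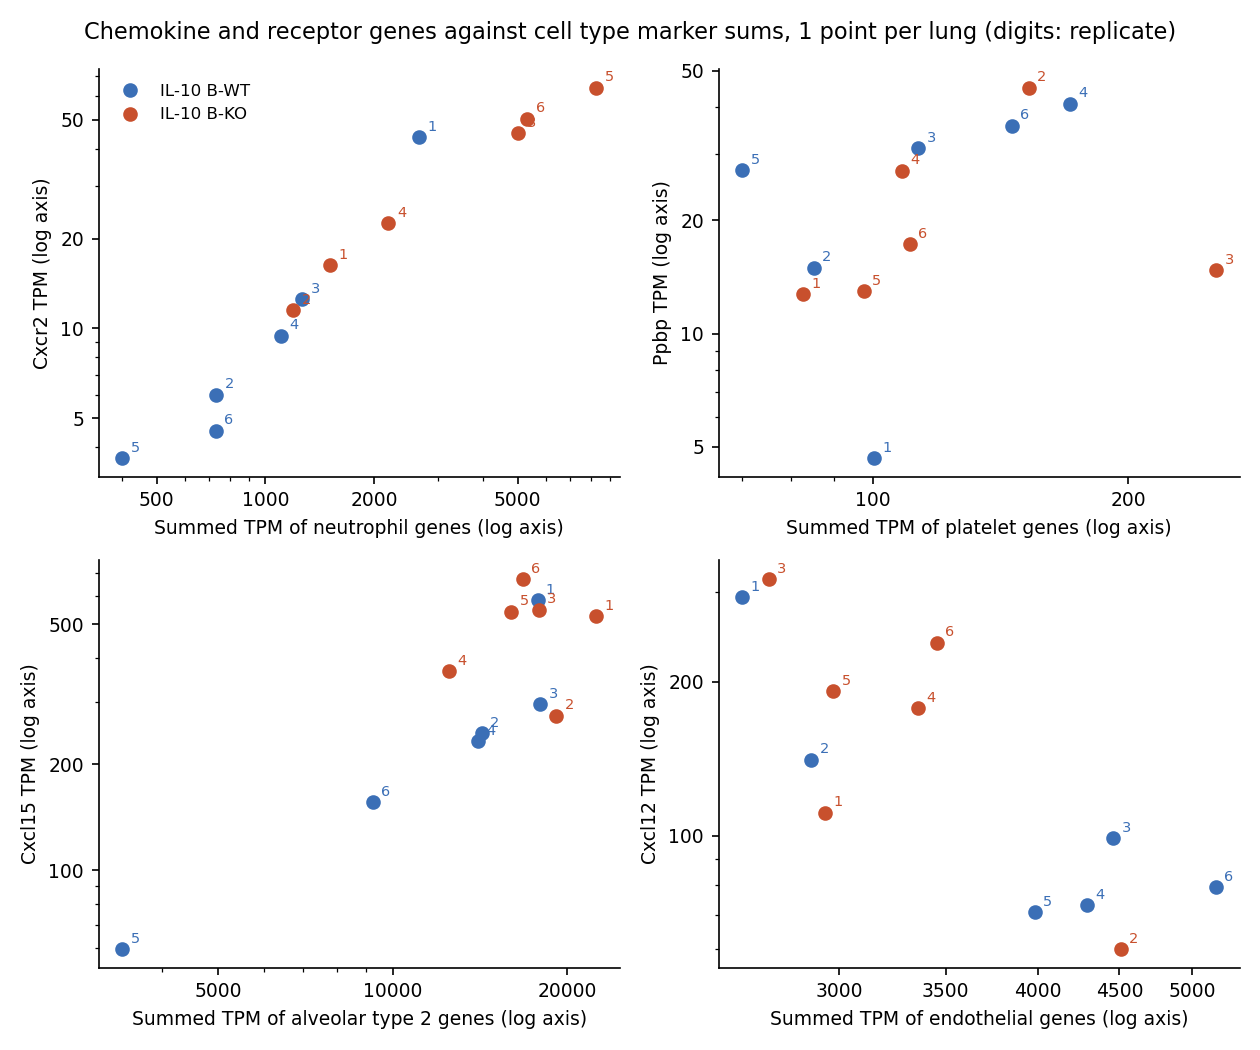
TPM of Cxcr2, Ppbp, Cxcl15 and Cxcl12 against the summed TPM of neutrophil, platelet, alveolar type 2 and endothelial genes, on log axes, with 1 point per lung, blue for IL-10 B-WT, red for IL-10 B-KO and digits for the replicate. Cxcr2 follows the neutrophil sum across both genotypes (r = 0.98), whereas the Cxcl15 panel rests on IL-10 B-WT replicates 5 and 6 at its lower left.

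Platelet markers did not separate the genotypes. Of 11 markers 10 were tested, 0 were DEGs, 0 were nominally higher or lower in limma, and their median log2 fold change was -0.02. Their sum ranged from 70.05 to 170.67 TPM in the IL-10 B-WT group and from 82.68 to 254.04 TPM in the IL-10 B-KO group. Pf4 weighs heavily in this sum, with means of 60.0 and 82.9 TPM against median sums of 106.6 and 109.4 TPM, in the same order. In IL-10 B-KO replicate 3 it held 205.65 of 254.04 TPM, so that relations with the sum say little of the other platelet markers. Ppbp correlated with this sum at r = 0.29 (permutation test, p = 0.351) and rho = 0.50 (permutation test, p = 0.0985) over the 12 lungs, at r = 0.43 within IL-10 B-WT lungs and at r = 0.21 within the IL-10 B-KO group (exact permutation tests, p = 0.392 and 0.690, n = 6). Without IL-10 B-KO replicate 3 and IL-10 B-WT replicate 4, r was 0.47 (permutation test, p = 0.165) and rho was 0.65 (permutation test, p = 0.0496, adjusted p = 0.0661 over the 4 relations). The abundant platelet markers after Pf4 were Gp9 and Itga2b, membrane glycoproteins of platelets, with log2 fold changes of -0.08 (adjusted p = 0.952) and 0.10 (adjusted p = 0.882).

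Cxcl12, the stromal ligand of Cxcr4, ranked second in level in both genotypes. It ranged from 70.83 to 292.26 TPM with a median of 89.1 TPM in the IL-10 B-WT group and from 59.97 to 317.72 TPM with a median of 185 TPM in the IL-10 B-KO group. Replicate 1 of the IL-10 B-WT group and replicate 2 of the IL-10 B-KO group again lay at the top and the bottom, and 4 IL-10 B-KO lungs lay above every IL-10 B-WT lung but replicate 1. Cxcl12 had a log2 fold change of 0.56 (SE 0.42, adjusted p = 0.565; exact permutation test, p = 0.262, n = 6). Cxcr4, its receptor on most leukocytes, differed least between the genotypes, with a range from 78.6 to 172.81 TPM and a median of 99.6 TPM in the IL-10 B-WT group and a range from 70.23 to 131.96 TPM and a median of 120 TPM in the IL-10 B-KO group. Its log2 fold change was 0.03 (SE 0.22, adjusted p = 0.956; exact permutation test, p = 0.883, n = 6), with a 95% interval from -0.44 to 0.51, and its sign turned under 3 other scalings. The interval does not reach the DEG threshold in either direction.

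Cxcl12 ran against the endothelial markers. Its r with the sum of 12 endothelial genes was -0.81 over the 12 lungs (permutation test, p = 0.0026, adjusted p = 0.00347) and rho was -0.78 (permutation test, p = 0.00357), with r = -0.76 without IL-10 B-KO replicate 2 and IL-10 B-WT replicate 6 (permutation test, p = 0.0140). Within IL-10 B-WT lungs r was -0.86 (exact permutation test, p = 0.0250, n = 6) and within the IL-10 B-KO group -0.74 (exact permutation test, p = 0.0958, n = 6). The rank relation was weaker there, with rho = -0.49 within each genotype (exact permutation tests, p = 0.356 each, n = 6). The endothelial sum ranged from 2607.12 to 5175.54 TPM in the IL-10 B-WT group and from 2709.26 to 4510.54 TPM in the IL-10 B-KO group. Of the 12 markers 12 were tested, and 2 were nominally lower, against 5.71% of all genes. Of them 0 were DEGs, and the median log2 fold change was -0.17. The abundant endothelial markers were Egfl7, Cldn5 and Cdh5, genes of vessel formation and endothelial junctions, with log2 fold changes of -0.20, -0.38 and -0.40 (adjusted p = 0.749, 0.566 and 0.443). Since TPM share 1 total, a gene that takes a larger share lowers the others, and the part of this in the negative relation was not tested.

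By mean TPM, the order in IL-10 B-WT lungs was Cxcl15, Cxcl12, Cxcr4, Ppbp, Cxcl2, Cxcl3, Cxcr2, Cxcl1, Cxcl5 and Cxcr1. In IL-10 B-KO lungs it was Cxcl15, Cxcl12, Cxcr4, Cxcl2, Cxcr2, Ppbp, Cxcl3, Cxcl1, Cxcl5 and Cxcr1. Neighbours in this order mostly overlapped in range, and the step from Cxcr4 to Ppbp in IL-10 B-WT lungs was the only one without overlap. Cxcl12 lay below Cxcl15 in 5 of 6 IL-10 B-WT lungs and 6 of 6 IL-10 B-KO lungs. Cxcr4 exceeded the next gene in 6 of 6 lungs of each genotype. The mean of Cxcl12 was above that of Cxcr4 in IL-10 B-WT lungs, although Cxcl12 exceeded Cxcr4 in just 1 of those 6 lungs, replicate 1. Cxcl3 likewise stood above Cxcr2 in 1 of the 6, the same lung. Without it the mean of Cxcr2 in IL-10 B-WT lungs was 7.25 TPM, that of Cxcl2 was 2.17 TPM and that of Cxcl3 was 1.12 TPM, and the order was Cxcl15, Cxcr4, Cxcl12, Ppbp, Cxcr2, Cxcl1, Cxcl5, Cxcl2, Cxcl3 and Cxcr1. Over all 12 lungs and among all genes tested, mean TPM placed Cxcl15 at the 98.0th percentile, Cxcl12 at the 94.9th, Cxcr4 at the 92.9th and Cxcr1 at the 8.69th.

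Receptors for other neutrophil attractants were nominally higher in the IL-10 B-KO group for 6 of 7 genes, against 6.83% of all genes. Of the 7, 0 were DEGs over all 12 lungs in limma. All 7 had a log2 fold change above 0, against 63.2% of all genes, and the median was 1.83. The largest values were those of C3ar1 and Ccr1, receptors of complement C3a and of CC chemokines, at 2.33 (SE 0.78, adjusted p = 0.292) and 2.08 (SE 0.68, adjusted p = 0.282). The smallest were those of Ltb4r1 and Ptafr, receptors of leukotriene B4 and of platelet-activating factor, at 1.24 (adjusted p = 0.328) and 1.32 (adjusted p = 0.449). Their summed TPM ranged from 22.61 to 545.93 in IL-10 B-WT lungs, with replicate 1 on top, and from 51.89 to 671.95 in the IL-10 B-KO group, with replicate 2 at the bottom. Without IL-10 B-WT replicate 1, 5 of the 7 were DEGs, all higher, against 2.30% of the genes then tested.

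Genes downstream of the receptors included no DEG. Of 22 signalling genes (G protein subunits, kinases, arrestins and regulators), 20 had a log2 fold change above 0, against 63.2% of all genes. Their median was 0.36, against 0.10 for all genes. Nominally 3 were higher, against 6.83% of all genes, and 0 were DEGs, against 0.495%. The largest were Fgr, a Src family kinase of myeloid cells, at 1.35 (SE 0.62, adjusted p = 0.387), and Pik3r5, a subunit of phosphoinositide 3-kinase gamma, at 1.28 (SE 0.58, adjusted p = 0.382). Arrb2, which encodes an arrestin that turns off and internalises the receptors, was the third nominally higher gene, at 1.00 (SE 0.45, adjusted p = 0.381). Plcb3, a phospholipase C, and Rgs18, a regulator of G protein signalling, were the 2 below 0, at -0.09 (adjusted p = 0.819) and -0.04 (adjusted p = 0.916).

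Upstream inducers and feedback genes of the ligands gave 0 DEGs and 0 nominally higher or lower genes in limma among 15 tested of 18. Their median log2 fold change was 0.76. Il1rn, the interleukin-1 receptor antagonist, had 2.13 (SE 1.03, adjusted p = 0.417) and Tnf 1.58 (SE 1.04, adjusted p = 0.521), and both had their IL-10 B-WT maximum, 253.38 and 161.33 TPM, far above the genotype's mean of 52.7 and 30.2 TPM. The lowest values were those of Traf3ip2, the adaptor of the interleukin-17 receptor, at -0.17 (adjusted p = 0.809), and Zfp36, which destabilises cytokine mRNA, at -0.04 (adjusted p = 0.958). Without IL-10 B-WT replicate 1, 1 gene of this list was a DEG, Il1a. Il17a, Il17f and Csf3, cytokines that act on ligand production and neutrophil release, did not pass the filter, with highest values of 3.27, 2.07 and 3.67 TPM in any lung.

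Atypical receptors, proteases and proteoglycan genes that bind or clear these ligands gave 0 DEGs among 9 tested of 10, against 0.495% of all genes. Nominally 1 was higher, against 6.83% of all genes, and the median log2 fold change was 0.47. Ackr3, the scavenging receptor of CXCL12, had 0.98 (SE 0.53, adjusted p = 0.460) and Ackr1, the chemokine-binding receptor of venules, 0.92 (SE 0.69, adjusted p = 0.560). Sdc1, the syndecan whose shed form carries bound CXCL1, was the nominally higher gene, at 0.83 (SE 0.34, adjusted p = 0.351). Dpp4, the protease that inactivates CXCL12, had -0.63 (SE 0.32, adjusted p = 0.429) and Ndst1, an enzyme of heparan sulfate synthesis, -0.11 (adjusted p = 0.883).

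The other CXC chemokines and receptors served as a comparison. Of 11 genes 10 were tested, 0 were DEGs, and the median log2 fold change was 0.50. Nominally 1 was higher, against 6.83% of all genes, and 1 lower, against 5.71%. Cxcl10 and Cxcl9, the interferon-induced ligands of Cxcr3, had 1.95 (SE 1.34, adjusted p = 0.532) and 1.13 (SE 1.37, adjusted p = 0.726), on lungs that ranged from 2.0 to 1174.08 TPM and from 1.55 to 1002.28 TPM. Cxcl16, the transmembrane ligand of Cxcr6, was the higher of these, at 0.97 (SE 0.43, adjusted p = 0.381), and it was the 1 DEG of this list without IL-10 B-WT replicate 1. Cxcr5, the follicular homing receptor of B cells, was the lower, at -1.49 (SE 0.58, adjusted p = 0.342), beside the lower B cell markers, and the part of those markers was not tested. Cxcl14, an epithelial and stromal chemokine, had -0.70 (SE 0.44, adjusted p = 0.502).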

How the data were processed

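The authors deposited 1 table of TPM for 55414 genes in 12 libraries, rounded to 2 decimals, which the submitters' processing notes credit to fastp, HISAT and RSEM on GRCm38.p5. Versions and the annotation release are not given in the sources used here. Columns were matched to samples by name (0 left unused). TPM keep no depth, so that no counting error could be given, and p-values measure the spread between these lungs, which nothing in the labels ties to separate litters or days.

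The fit used limma 3.58.1 (R 4.3.3; lmFit and eBayes, trend on) for the log2(TPM + 1) values, a pseudocount of 1, with no term but genotype. It covered the 15148 genes that reached 1 TPM in 6 or more libraries, with Benjamini-Hochberg adjustment over all of them. The study's methods list Limma among other tools with a fold of change of 1, read here as log2. Each of the 10 genes also had an exact permutation test, two-sided, of the difference in mean log2(TPM + 1), with 924 arrangements and a smallest p of 0.00216. Relations with marker sums were tested by two-sided permutation (100000 resamples, or exact within a genotype). The scripts were tested on simulated data before use.

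The 10 genes, the 17 gene lists and the tests were chosen with earlier results of these data known. Also named were, of a pathway list, its DEGs with the 2 largest rises and 2 largest falls, and, of a marker list, its DEGs with the 3 genes of highest mean TPM. Arrb2, Sdc1, Cxcl16, Il17a, Il17f and Csf3 fall outside this rule and were named after their values were seen. Coordinates came from GENCODE M21 by gene ID (52081 genes matched), and promoters from RefSeq by symbol (9 of 10 genes, all but Cxcl5). Of the 10 genes, 1 overlaps another annotated gene, Cxcl15 with the microRNA gene Gm24322 on the opposite strand. Replicate numbers are shared by both genotypes, but same-numbered lungs did not deviate together (correlations from -0.292 to 0.046), and the numbers were not used as pairs. Alternatives were 8 other settings and each of the 12 libraries left out in turn, and the spread and level order without 3 single lungs were added after seeing the data. Other software was SciPy 1.17.1, NumPy 2.4.6, pandas 2.3.3 and matplotlib 3.10.9 under Python 3.11.15.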

Additional observations from a re-analysis of the deposited data

Results flagged for a closer look

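The gap from the top lung to the next, as a share of the whole range, was compared with Dixon's 95% critical value. Among the 20 sets of 6 lungs (10 genes in each genotype), 6 held a top lung that exceeded it on the TPM scale. Chance gives about 1 in 20 only for independent sets of normally distributed values. TPM are skewed and these sets share lungs and correlated genes, so that this rate is no measure of an excess here. IL-10 B-WT replicate 1 was that lung in 5 of the 6 sets, at 43.47 TPM for Cxcl1, 101.27 TPM for Cxcl2, 74.72 TPM for Cxcl3, 43.73 TPM for Cxcr2 and 292.26 TPM for Cxcl12. IL-10 B-KO replicate 5 was that lung in the other set, at 48.98 TPM for Cxcl1. On log2(TPM + 1), 3 sets exceeded it: Cxcl3 with a high IL-10 B-WT replicate 1, and Cxcl2 and Cxcl3 with a low IL-10 B-KO replicate 2. The cause was not tested.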

How the results depend on the processing

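TPM carry no depth, so that low values such as those of Cxcr1 or of Cxcl2 in several IL-10 B-WT lungs have no known counting error, and 6 lungs per genotype set the precision. The count of DEGs, 75 over all lungs, was 6 without a filter on low TPM, 27 after rescaling without immunoglobulin genes, 39 with quantile normalization, 36 with median centring and 318 with array quality weights. Leaving out 1 lung gave 15 (IL-10 B-KO replicate 5) to 576 (IL-10 B-WT replicate 1). DEGs in the lists, 6 over all lungs, numbered 0 without the filter, 1 with quantile normalization, 1 with median centring and 17 with array quality weights, and 0 to 29 with 1 lung left out. With 1 lung left out, DEGs among the 10 genes ranged from 0 to 3, the 3 beside 2.30% of all genes as DEGs higher in that fit. Nominally higher genes ranged from 2 to 7 of the 10, while the share of all genes ranged from 3.19% to 17.9% over the same fits. With array quality weights 7 were nominally higher, against 11.1% of all genes, and 0 were DEGs. The replicate number as a block, which the data do not show to pair the lungs, gave 45 DEGs, 3 of them in the lists and 0 among the 10 genes, and 2 of the 10 were nominally higher, against 5.19% of all genes. The log2 fold change of Cxcr4 turned sign, at -0.022 after rescaling, -0.144 with quantile normalization and -0.074 with median centring, and ranged from -0.0534 to 0.172 with 1 lung left out, and that of Ppbp ranged from -0.533 to 0.0441. The other 8 genes kept their direction in every setting run. Quantile normalization moved the median log2 fold change of all genes from 0.10 to 0.0054 and that of the 10 genes from 0.93 to 0.82. Without IL-10 B-WT replicates 5 and 6 the relation of Cxcl15 with alveolar type 2 genes was lost (r = 0.39). Within IL-10 B-KO lungs it was lost too (r = 0.12). By r, Cxcl12 with endothelial genes passed the threshold within IL-10 B-WT lungs (r = -0.86, n = 6). It missed the threshold within IL-10 B-KO lungs (r = -0.74, n = 6). By rho it missed the threshold within each genotype. The cause of any of these changes was not tested.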

Other observations

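Monocyte and interstitial macrophage genes were nominally higher in the IL-10 B-KO group for 8 of 10 markers, against 6.83% of all genes. There were 0 DEGs among them in limma, and their median log2 fold change was 1.42. Apoe, a lipoprotein gene of macrophages, had 1.25 (adjusted p = 0.423), C1qb, a complement subunit, 1.65 (adjusted p = 0.304), and Ly6c2, the marker of inflammatory monocytes, 1.90 (adjusted p = 0.367). Their sum ranged from 856.01 to 4844.48 TPM in the IL-10 B-WT group and from 893.62 to 11262 TPM in the IL-10 B-KO group, where replicate 2 was lowest, while replicate 1 was highest of the IL-10 B-WT group, as for Cxcl12. Adgre1 was a DEG on leaving out IL-10 B-WT replicate 1, and Apoe on leaving out IL-10 B-KO replicate 2. Alveolar macrophage markers had a median of 0.27 with 1 of 10 nominally higher, against 6.83% of all genes, and 0 DEGs (1, Marco, without IL-10 B-WT replicate 1). The abundant ones were Chil3 at 1.76 (adjusted p = 0.349), Ear2 at 0.38 (adjusted p = 0.684) and Car4 at -0.81 (adjusted p = 0.444).

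Markers of pericytes, the cells that wrap capillaries, were nominally lower for 10 of 10 genes, against 5.71% of all genes. Of the 10, 5 were DEGs, against 0.469% of all genes as DEGs lower in the IL-10 B-KO group. These were Gucy1a1 at -2.07 (adjusted p = 0.0222), Notch3 at -1.78 (adjusted p = 0.0236), Gucy1b1 at -1.65 (adjusted p = 0.0378), Pdgfrb at -1.44 (adjusted p = 0.0456) and Trpc6 at -1.29 (adjusted p = 0.0195). These calls depended on single lungs. On leaving out IL-10 B-WT replicate 1, 9 of the 10 were DEGs, beside 232 DEGs lower among the 14943 genes then tested. Leaving out IL-10 B-WT replicate 2 gave 2 pericyte DEGs, replicate 5 or 6 gave 1 and replicate 4 gave 0. In the IL-10 B-KO group, leaving out replicate 6 gave 3 DEGs, and any of replicates 1, 3 and 5 gave 0. The abundant pericyte markers Postn, Cox4i2 and Higd1b had -1.38 (adjusted p = 0.0961), -1.45 (adjusted p = 0.177) and -1.16 (adjusted p = 0.168). Fibroblast markers gave 3 nominally lower genes of 10, against 5.71% of all genes, and 0 DEGs (1, Inmt, without IL-10 B-WT replicate 1). Their median was -0.26, and the abundant ones had -1.78 for Inmt (adjusted p = 0.325), -0.44 for Mfap4 (adjusted p = 0.696) and 1.01 for Col3a1 (adjusted p = 0.534). Erythroid, club cell and T cell markers had medians of -1.20, -0.78 and -0.20, with 0 DEGs and 0 nominally higher or lower genes in limma. The erythroid sum ranged from 2957.86 to 96332.5 TPM in the IL-10 B-WT group and from 3523.19 to 22586.8 TPM in the IL-10 B-KO group, led by Hba-a2 at -1.47 (adjusted p = 0.449), Hbb-bs at -1.29 (adjusted p = 0.474) and Hba-a1 at -1.40 (adjusted p = 0.474). Scgb1a1, the main secretory protein gene of club cells, had -1.12 (adjusted p = 0.434), Scgb3a2 -0.89 (adjusted p = 0.606) and Cyp2f2 -1.27 (adjusted p = 0.465). Of the T cell markers, Trac had -0.29 (adjusted p = 0.824), Cd2 -0.49 (adjusted p = 0.637) and Cd3g 0.13 (adjusted p = 0.922), and of the B cell markers after Cd79a, Cd79b had -1.90 (adjusted p = 0.304) and Cd22 -1.48 (adjusted p = 0.381).

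The genes whose pattern over the 12 lungs was most like that of Cxcl15, by Pearson's r of deviations from the genotype means, were Hps6 (r = 0.99), a gene of lysosome-related organelles, Gadd45a (r = 0.98), a stress response gene, and Dram1 (r = 0.98), a lysosomal membrane gene. None of them is a marker of the lists used here. For Cxcl12 they were Zeb2 (r = 0.98), a transcriptional repressor, Eno1 (r = 0.98), a glycolytic enzyme, and Diaph2 (r = 0.97), a formin.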
